A study of Homo sapiens with 7 samples.

Results

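The aldo-keto reductases (AKRs) are NADPH-dependent enzymes that reduce aldehydes and ketones to alcohols. The 10 AKR genes described here, of 34809 gene names on the array, are AKR1B1, AKR1B10, AKR1B15, AKR1C1, AKR1C3, AKR1C4, AKR1A1, AKR1D1, AKR7A2 and AKR7A3. They were taken by gene name, together with all their 13 non-control probes. The family was chosen by measured values, the difference between HOTAIR and EV on these same arrays. The probes named for AKR1B10 and AKR1B15 were already known to be higher in HOTAIR there, and the other genes were taken by family name. For this reason the differences between the groups are given below as a description and no p-value is given for a member.

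HOTAIR is a long non-coding RNA transcribed from the HOXC locus, and the study asked how it alters gene expression in renal cell carcinoma. ACHN cells, an established human renal cell adenocarcinoma line, were transduced with the retroviral vector pBabe-hygro carrying HOTAIR (HOTAIR, 3 samples) or nothing (EV, the empty vector control, 4 samples), and both groups were selected with hygromycin. Total RNA of each sample was labelled with Cy3 and hybridised to an array of its own, on the Agilent SurePrint G3 human gene expression platform. Both groups come from 1 cell line and the sources used here do not say whether the samples of a group were separate cultures, so the spread between arrays may be technical. By the array positions, all EV arrays lay in 1 row of the slide and all HOTAIR arrays in the other, so the row and the group cannot be told apart.

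The AKR1B enzymes act on sugars, retinal and reactive lipid aldehydes. AKR1B1, aldose reductase, makes sorbitol from glucose and is long known in the renal medulla, where sorbitol serves as an osmolyte, while AKR1B10 reduces retinal and other aldehydes and is a known marker of several carcinomas. The AKR1C enzymes are hydroxysteroid dehydrogenases, AKR1D1 is the steroid 5-beta-reductase of bile acid synthesis in liver, AKR1A1 is a broad aldehyde reductase, and the AKR7A enzymes were first described as aflatoxin aldehyde reductases. Several AKR genes are known targets of the oxidative stress factor NRF2.

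Members of a subfamily resemble each other in sequence, so what each probe can read depends on its bases. The probes are 60 bases long, were read from the array files and are written 5′ to 3′ in the sense of the transcript. The probes below carry the AKR1B result and those compared with it. In AKR1B15 and AKR1C3 the capitals mark the bases that are identical when the probes are laid side by side without gaps, 31 of 50 aligned bases (62%).
AKR1B10, probe A_24_P129341: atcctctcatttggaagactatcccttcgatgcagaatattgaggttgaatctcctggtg
AKR1B15, probe A_33_P3380992: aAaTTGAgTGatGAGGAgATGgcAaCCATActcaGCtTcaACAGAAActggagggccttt
AKR1C3, probe A_23_P138541: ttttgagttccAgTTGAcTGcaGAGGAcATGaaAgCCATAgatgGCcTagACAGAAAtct
AKR1B1, probe A_23_P258190: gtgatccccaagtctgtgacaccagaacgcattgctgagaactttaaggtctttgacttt

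The first of these lies at chr7:134225799-134225858 and the AKR1B15 probe at chr7:134262468-134262527, both on the plus strand of hg19, the build of the array's annotation. The second AKR1B10 probe, A_23_P93641, lies further downstream at chr7:134225939-134225998. The accessions that the array annotation gives for the AKR1B15 probe belong to AKR1B15 and to AKR1B10, so signal from the transcripts of these neighbouring genes cannot be told apart on it. The annotation places the AKR1B1 probe at chr3:74185878-74185937, although the RefSeq gene table of GRCh38.p14 lists AKR1B1 on chromosome 7 and the pseudogene AKR1B1P2 on chromosome 3.

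Values are log2 processed signals relative to the 75th percentile of the same array, so 0 is the level of the spot at that percentile, and they compare arrays for 1 probe but not probes with each other. The 75th percentile lay between 522.5 and 649.1 intensity units on the EV arrays and between 552 and 640.2 on the HOTAIR arrays, and 54% to 57.1% of the spots were well above background by the scanner software's call. The HOTAIR probe was well above background on 0 of 4 EV arrays and on 3 of 3 HOTAIR arrays, with a difference of at least 9.32-fold (limma, adjusted p = 0.00162). This bound sets the mean of the HOTAIR arrays against the dimmest signal that still counted as well above background. Of 10 markers of renal tubule or renal carcinoma, 8 were well above background on all arrays, CDH6 and CA9 being so on none, whereas the 4 fibroblast markers and the hepatocyte markers ALB and TTR were so on no array. Of the other markers, CD68, of macrophages, was so on all 7 arrays, the hepatocyte marker APOA1 and the endothelial CDH5 on 4 each, the blood cell marker PTPRC on 3 and the endothelial PECAM1 on 1.

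Of the 13 AKR probes, 9 probes of 8 genes passed the filter, which asked for a call well above background on all EV or on all HOTAIR arrays, and entered the fit with 20419 probes in all. Among these 9, 8 had a higher mean in HOTAIR and 1 a lower mean. The 8 include the 3 probes of AKR1B10 and AKR1B15, by which the family was chosen. They also include A_23_P257971 of AKR1C1, which passed the filter only through the HOTAIR arrays. The share of all tested probes with a higher mean was not counted, and their median log2 difference was 0.013. In 3 of the 9, all HOTAIR arrays lay outside the EV range, against 7.7% of all tested probes, and the same 3 probes, of AKR1B10 and AKR1B15, were past an adjusted p of 0.05 in the limma fit. Over all tested probes 0.132% were past this limit with a higher and 0.0343% with a lower signal in HOTAIR. These counts describe the values that led to the choice of the family.

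**Figure D1:**
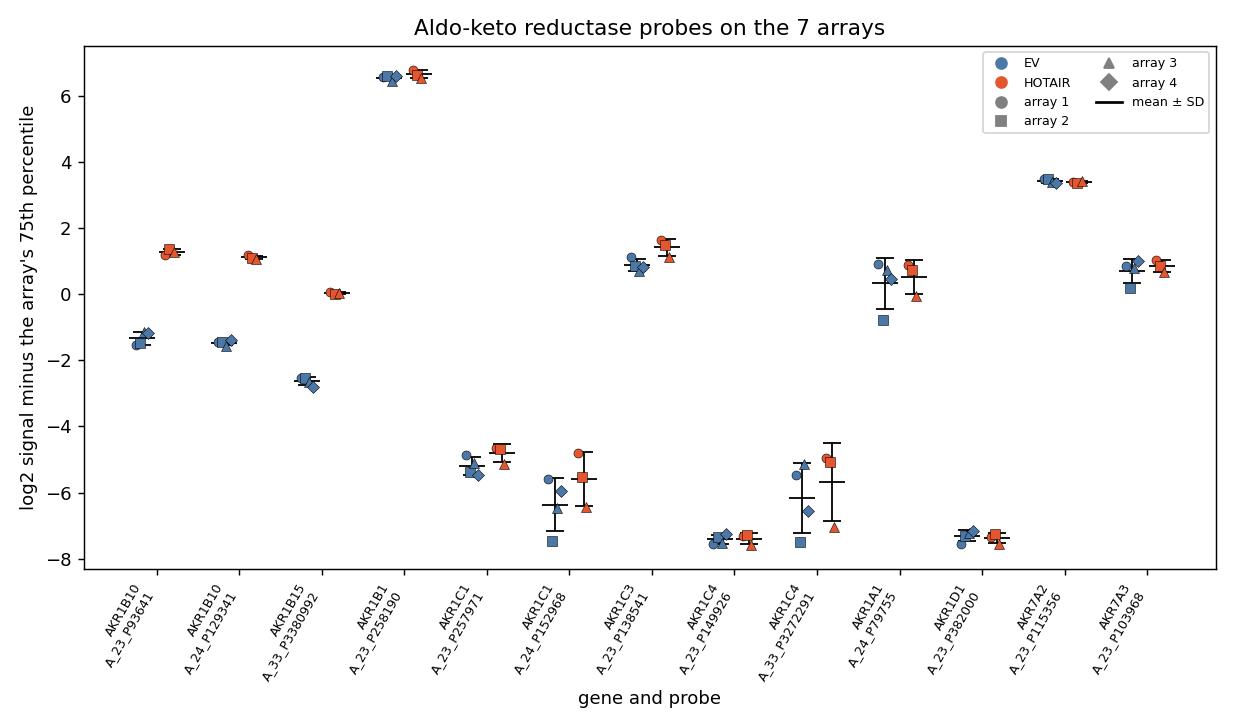
Log2 signal minus the 75th percentile of its array (vertical axis) of the 13 AKR probes (horizontal axis) on the 4 EV arrays (blue) and the 3 HOTAIR arrays (red), with the symbol giving the array number and the black bars the mean ± SD. The groups stand apart for both AKR1B10 probes and the AKR1B15 probe, and the square of EV 2 and the triangle of HOTAIR 3 are the lowest of their groups for AKR1A1, AKR7A3, AKR1C1 A_24_P152968 and AKR1C4 A_33_P3272291.

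AKR1B10 was higher on every HOTAIR array than on any EV array, at both of its probes. At A_23_P93641 the log2 signal was -1.53, -1.47, -1.14 and -1.18 on EV 1 to EV 4 and 1.19, 1.35 and 1.29 on HOTAIR 1 to HOTAIR 3. The groups did not overlap, and the gap between them was far wider than the spread within either. The log2 difference was 2.61 (SE 0.14), or 6.11-fold, from a mean of -1.33 ± 0.20 (SD, n = 4) in EV to one of 1.28 ± 0.081 (SD, n = 3) in HOTAIR. The 2 spots of this probe differed within an array by a median SD of 0.0424 on the log2 scale.

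At the upstream probe A_24_P129341 the log2 signal was -1.45, -1.45, -1.56 and -1.37 on the EV arrays and 1.18, 1.10 and 1.07 on the HOTAIR arrays. The difference was 2.58 (SE 0.10), or 5.96-fold, between means of -1.46 ± 0.078 (SD, n = 4) and 1.11 ± 0.056 (SD, n = 3). The probes of AKR1B10 thus gave differences within 1 SE of each other. AKR1B10 was measurable in the control cells too, since both probes were well above background on all EV arrays, at processed intensities of 191 to 259 and of 193 to 237.

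The single probe of AKR1B15, whose product reduces retinal and certain ketosteroids, showed the same pattern. The accessions of this probe also belong to AKR1B10, so it does not show whether AKR1B15 itself was higher. The log2 signal was -2.52, -2.54, -2.64 and -2.80 on the EV arrays and 0.075, 0.0096 and 0.052 on the HOTAIR arrays. The HOTAIR arrays lay close together, with no overlap with EV. HOTAIR exceeded EV by 2.67 (SE 0.11) on the log2 scale, or 6.37-fold, with means of 0.046 ± 0.033 (SD, n = 3) against -2.63 ± 0.13 (SD, n = 4). On the intensity scale the EV arrays reached 75.2 to 113 units and the HOTAIR arrays 556 to 674.

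Where the local background was modelled from the raw spot means (normexp) in place of the scanner software's subtraction, the differences were smaller, at 2.35 and 2.28 for AKR1B10 and 1.98 for AKR1B15. This setting also added an offset of 50 intensity units to every spot before the log2, which lowers differences most where a probe is dim. Leaving out any single array kept them between 2.54 and 2.67, 2.54 and 2.60, and 2.61 and 2.70, respectively.

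AKR1B1, the third AKR1B gene measured, did not share this pattern. Its log2 signal was 6.57, 6.60, 6.47 and 6.61 on the EV arrays and 6.80, 6.63 and 6.56 on the HOTAIR arrays, and the groups overlapped. The difference was 0.10 (SE 0.11) on the log2 scale. The probe reached processed intensities of 50500 to 71200 units, and the scanner software marked no spot on any array as saturated.

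**Figure D2:**
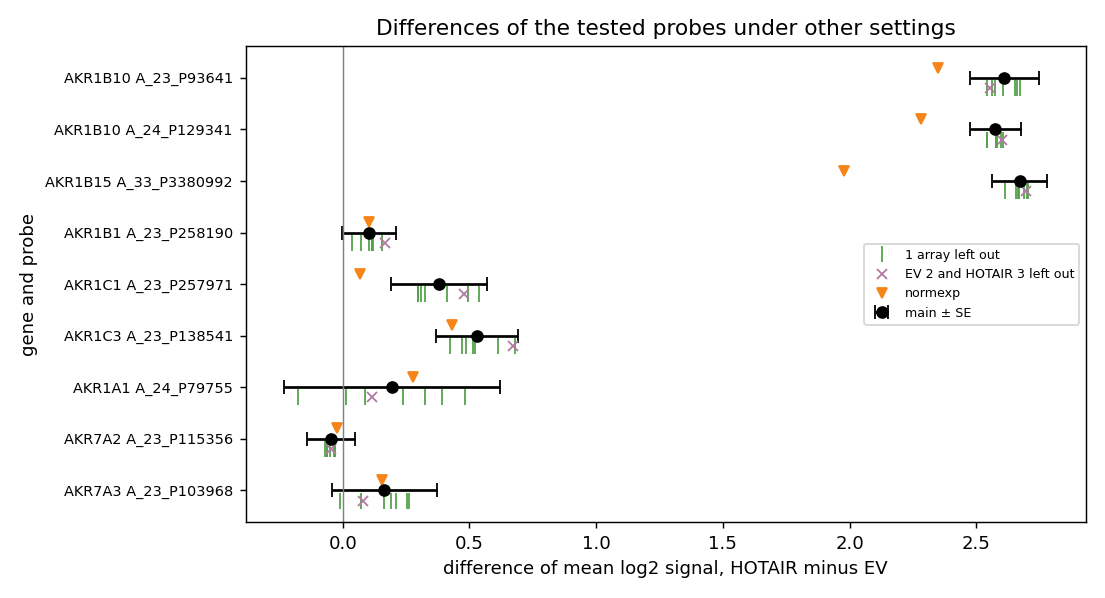
Difference of mean log2 signal, HOTAIR minus EV (horizontal axis), of the 9 tested AKR probes (vertical axis), as measured with its SE (black), with 1 array left out (green), without EV 2 and HOTAIR 3 (purple) and after normexp background correction (orange). The 3 probes of AKR1B10 and AKR1B15 lie between 1.98 and 2.70 in all of these, and the other 6 lie below 0.68.

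Among the AKR1C genes, AKR1C3 was clearly measured and AKR1C1 and AKR1C4 were near background. AKR1C3 is the type 5 17-beta-hydroxysteroid dehydrogenase and also makes prostaglandin F. Its log2 signal was 1.14, 0.87, 0.71 and 0.84 on the EV arrays and 1.63, 1.505 and 1.12 on the HOTAIR arrays, with HOTAIR 3 just below EV 1, so the groups overlapped. The difference was 0.53 (SE 0.16), between 0.89 ± 0.18 (SD, n = 4) in EV and 1.42 ± 0.26 (SD, n = 3) in HOTAIR. The difference was 0.43 to 0.68 with 1 array left out.

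AKR1C1, the 20-alpha-hydroxysteroid dehydrogenase that inactivates progesterone, has 2 probes, whose accessions both belong to AKR1C1 and to AKR1C2. AKR1C2 itself had no probe of its own name. The annotation places A_23_P257971 at chr10:5032153-5032212 on the minus strand and A_24_P152968 at chr10:5005636-5005695 on the plus strand. Signal from AKR1C1 and AKR1C2 cannot be told apart on either probe. At A_23_P257971 the log2 signal was -4.86, -5.37, -5.11 and -5.46 on the EV arrays and -4.65, -4.67 and -5.13 on the HOTAIR arrays. The probe was well above background on 2 of 4 EV and 3 of 3 HOTAIR arrays, so it entered the fit only through the HOTAIR group. The difference of 0.38 (SE 0.19) fell to 0.068 after normexp correction, and the groups overlapped. The other probe, A_24_P152968, was well above background on 0 EV arrays and 1 HOTAIR array and has no tested difference.

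The last AKR1C probes are shown because of where they bind. The AKR1C1 probe begins 1 base before a start codon, in capitals, near the 5′ end of the message. The AKR1C4 probes overlap by 29 bases, in capitals.
AKR1C1, probe A_24_P152968: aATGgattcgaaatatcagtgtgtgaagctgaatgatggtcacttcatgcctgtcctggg
AKR1C4, probe A_33_P3272291: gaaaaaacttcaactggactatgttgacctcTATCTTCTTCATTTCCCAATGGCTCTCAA
AKR1C4, probe A_23_P149926: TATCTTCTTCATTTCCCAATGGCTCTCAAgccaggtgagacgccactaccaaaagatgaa

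AKR1C4 is the hepatic 3-alpha-hydroxysteroid dehydrogenase. A_23_P149926 was well above background on no array. A_33_P3272291 was so on 1 EV and 2 HOTAIR arrays, with log2 signals of -5.48, -7.49, -5.15 and -6.55 in EV and -4.95, -5.07 and -7.05 in HOTAIR. The probes of AKR1C4 therefore disagree although they share 29 bases, and A_33_P3272291 also matches the probe of the neighbouring AKR1C8 (AKR1CL1 on the array) in 44 of 60 bases (73.3%), a probe that was well above background on 0 arrays. AKR1D1 was likewise well above background on no array, in either group.

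The remaining reductases did not separate the groups. AKR7A2, which reduces succinic semialdehyde, was measured on 10 spots per array, with 4 outlier spots left out in all. Its log2 signal was 3.48, 3.48, 3.40 and 3.37 on the EV arrays and 3.39, 3.36 and 3.41 on the HOTAIR arrays, a difference of -0.048 (SE 0.095). AKR7A3 gave 0.84, 0.18, 0.78 and 0.99 in EV and 1.05, 0.86 and 0.68 in HOTAIR, a difference of 0.16 (SE 0.21). Its lowest value was that of EV 2.

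AKR1A1 varied more between arrays of a group than the other tested AKR probes. Its log2 signal was 0.92, -0.78, 0.72 and 0.45 on the EV arrays and 0.88, 0.74 and -0.058 on the HOTAIR arrays. EV 2 and HOTAIR 3 were the low arrays, at -1.48 and -0.87 relative to the mean of the others of their group, and the difference between the groups was 0.19 (SE 0.43). Without EV 2 it became -0.17, and that of AKR7A3 became -0.0094. Without both arrays the differences were 0.11 and 0.081.

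EV 2 and HOTAIR 3 had the widest deviations of their groups over all tested probes. The SD of the deviations from the group mean was 0.476 on EV 2 against 0.246 to 0.299 on the other EV arrays. On HOTAIR 3 it was 0.285 against 0.184 and 0.217, a value within the range of those other EV arrays. EV 2 and HOTAIR 3 were both the lowest of their group for 4 of the 13 AKR probes (30.8%), those of AKR1A1 and AKR7A3, A_24_P152968 of AKR1C1 and A_33_P3272291 of AKR1C4, and for 27% of all tested probes. A_24_P152968 and A_33_P3272291 were not among the tested probes, so these shares are over unlike sets of probes. The part of RNA quality or labelling in how EV 2 and HOTAIR 3 differed from the others of their groups was not tested. The differences of AKR1B10 (2.56 and 2.60) and AKR1B15 (2.70) without both arrays stayed close to those over all arrays.

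The genes around the AKR1B cluster on chromosome 7 were looked at by position, 10 gene entries on either side in the RefSeq table. Of the 8 with a probe, 6 were tested and 0 passed an adjusted p of 0.05 by limma, 0 an unadjusted p of 0.05 and 0 the rank product. SLC35B4, the nearest tested gene on the AKR1B1 side, differed by -0.0059 (SE 0.10), and BPGM, the red cell bisphosphoglycerate mutase gene nearest on the AKR1B15 side among those tested, by 0.033 (SE 0.11), both with an adjusted p above 0.99. AGBL3 at 0.10 and WDR91 at -0.25 were the extremes of the set. Of 10 genes with a probe around the AKR1C cluster on chromosome 10, 4 were tested and 0 passed by limma, with 0 at an unadjusted p of 0.05 and 0 by the rank product, from UCN3 at -0.27 to CALML3 at 0.38. UCN3 was well above background on 1 of 3 HOTAIR arrays and ranged from -0.55 (without HOTAIR 3) to -0.025 (without HOTAIR 2), and CALML3 from 0.040 (without EV 2) to 0.60 (without HOTAIR 3).

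Outside the 10 members, 6 further genes of the AKR superfamily had probes and 2 were tested, AKR7L with a log2 difference of -0.079 and KCNAB2, a potassium channel beta subunit, with 0.099. These are the brightest probes of each gene, and neither reached an adjusted or unadjusted p of 0.05 by limma or the limit of the rank product. The second tested probe of KCNAB2 differed by 0.41 (SE 0.15, limma, adjusted p = 0.748, unadjusted 0.0267), so the probes of this gene disagree in size.

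The pathways in which AKR enzymes work were compared by lists of genes drawn up from known function. In the 7 pathway lists and the list of other AKR genes together, 111 distinct genes were tested, of which 1 rose and 0 fell, with a median log2 difference of 0.055 against 0.013 over all tested probes. At an unadjusted p of 0.05, the background for the counts below was 3.56% of all tested probes higher and 2.29% lower in HOTAIR. The single call was SLC7A11, the cystine transporter subunit that feeds glutathione synthesis, among the known targets of NRF2. Its log2 signal was -0.013, -0.011, 0.14 and 0.066 on the EV arrays and 1.03, 1.13 and 0.96 on the HOTAIR arrays, a rise of 0.99 (SE 0.10, limma, adjusted p = 0.0205). The call rests on all arrays but EV 2, since without any one of the others the adjusted p was 0.0688 to 0.159, and the rank product did not call it.

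Of the 29 NRF2 targets tested, 1 rose and 0 fell, and the median was 0.15 against 0.013 over all tested probes. A difference above 0 was found for 26 of them, but the share of all tested probes above 0 was not counted. An unadjusted p under 0.05 was reached by 4, all higher in HOTAIR. ABCC3, a drug and bile salt exporter, had the lowest difference at -0.070. AKR genes had been kept out of this list.

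In retinoid metabolism, where AKR1B10 acts on retinal, 0 of 16 genes passed by limma in either direction and the median was -0.022. At an unadjusted p of 0.05, 3 were lower and 0 higher in HOTAIR, the 3 being ALDH1A1, RDH10 and DHRS9. DHRS9 was well above background on 4 of 4 EV arrays but on 1 of 3 HOTAIR arrays. It therefore entered the fit only through the EV group, where its signal was higher. ALDH1A1, which oxidises retinal to retinoic acid, had the lowest difference. Its log2 signal was -0.57, 0.070, -0.79 and -0.65 on the EV arrays and -1.69, -1.64 and -1.27 on the HOTAIR arrays, a difference of -1.05 (SE 0.22, limma, adjusted p = 0.223). The groups did not overlap. The rank product called ALDH1A1 as lower, but its error estimate had been found not to hold for probes of unequal spread. CRABP1, a retinoic acid binding protein, gave 0.49, but it was well above background on only 1 of 4 EV arrays and the difference was 0.057 with normexp.

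The other lists gave 0 calls by limma and 0 by the rank product. Of 22 other carbonyl, quinone and alcohol oxidoreductases, 2 were higher at an unadjusted p of 0.05 and 0 lower, the median was 0.035, and DHRS11 gave the lowest difference, -0.47. ALDH3A1 gave 0.48, but it was well above background on 3 of 4 EV arrays, and the difference was 0.10 with normexp. Of 12 genes of steroid hormone metabolism, 0 reached an unadjusted p of 0.05, with a median of 0.057, from -0.29 for SRD5A3 to 0.25 for HSD17B14. The value of HSD17B14 rests on single arrays, being -0.14 without EV 2, -0.045 without HOTAIR 1 and 0.68 without HOTAIR 3.

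In prostaglandin metabolism the median over 11 genes was 0.15, from -0.19 for the exporter ABCC4 to 0.63 for thromboxane synthase, TBXAS1 (0.34 without EV 2, 0.25 with normexp), and 2 were higher and 0 lower at an unadjusted p of 0.05. In bile acid synthesis the median over 9 genes was 0.12, from -0.16 for HSD17B4 to 0.67 for the sterol 27-hydroxylase CYP27A1 (limma, adjusted p = 0.305), again with 2 higher and 0 lower at an unadjusted p of 0.05. Among 16 genes of the polyol pathway, osmolytes and methylglyoxal, the setting of AKR1B1, the median was 0.024. The fructose transporter gene SLC2A5 gave 0.89 (limma, adjusted p = 0.448), but it was well above background on only 1 of 4 EV arrays and the difference was 0.11 with normexp. SGK1 had the lowest difference, -0.25. At an unadjusted p of 0.05, 1 gene of the list was higher and 0 lower. The 1 higher gene was SLC2A5 itself, which entered the fit only through the HOTAIR group.

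**Figure D3:**
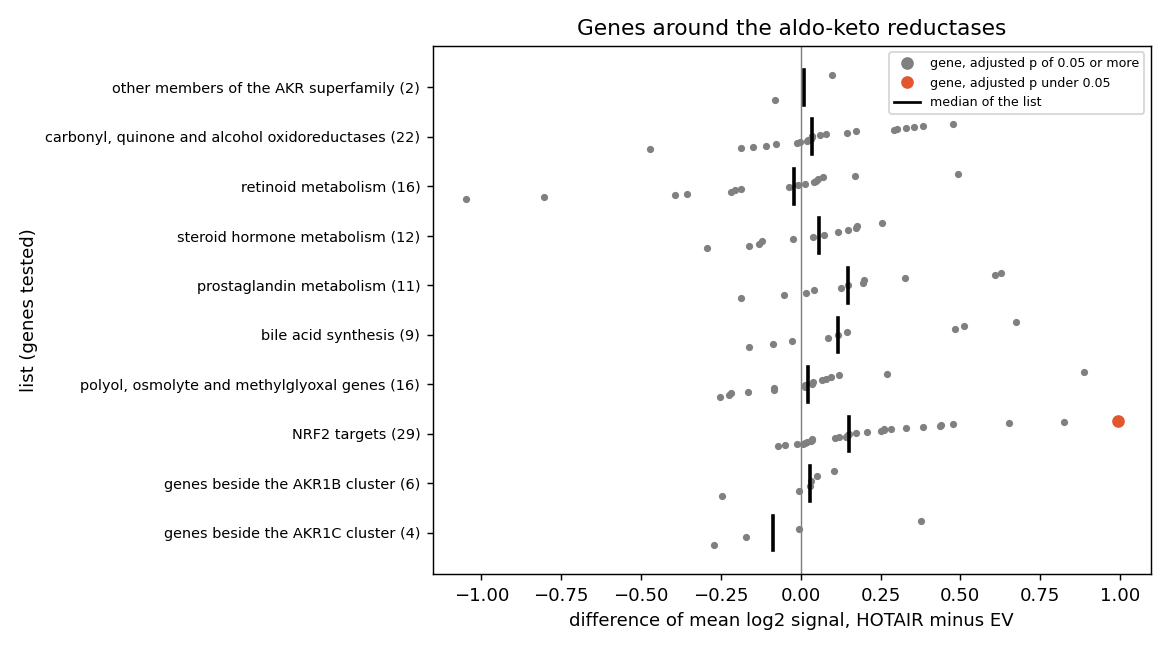
Difference of mean log2 signal, HOTAIR minus EV (horizontal axis), of each tested gene in the lists of functionally related and neighbouring genes (vertical axis, with the number tested), with the median of each list as a black bar. SLC7A11, in red at 0.99, is the only gene past an adjusted p of 0.05, and ALDH1A1 lies furthest to the left at -1.05.

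The genes whose profile over the 7 arrays lay nearest to that of AKR1B10 were found by root mean square distance from A_23_P93641. Profiles were centred on the EV mean, on the log2 scale. With so large a step between the groups, this distance mainly finds probes of a similar difference, the value by which the family was chosen. It does not show whether signals move together within a group. Among the probes that were above background on every one of the 7 arrays, the nearest was the other AKR1B10 probe, at a distance of 0.166. The AKR1B15 probe, whose accessions also belong to AKR1B10, followed at 0.218. The first gene outside the family was the insulin-like growth factor binding protein IGFBP2 at 0.276. IGFBP2 had log2 signals of -4.24 to -4.03 on the EV arrays and -2.11 to -1.51 on the HOTAIR arrays. Its difference of 2.37 became 1.22 with normexp background correction, whereas those of AKR1B10 were 2.35 and 2.28 there. IGFBP2 had the lower signal, on which the offset of that setting weighs more. AKR1C3 lay at 1.39.

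The nearest 5 genes outside the family by this distance over all tested probes also included UBE2DNL, the carboxypeptidase CPVL, the dynein heavy chain DNAH10 and the complement receptor CR2. These 4 were well above background on 0 EV arrays and on all HOTAIR arrays, so their EV values are only bounds and their distances have no order. With normexp their log2 differences were 0.46 for UBE2DNL, 0.52 for CPVL, 0.36 for DNAH10 and 0.57 for CR2. The distances were not recomputed with normexp.

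**Figure D4:**
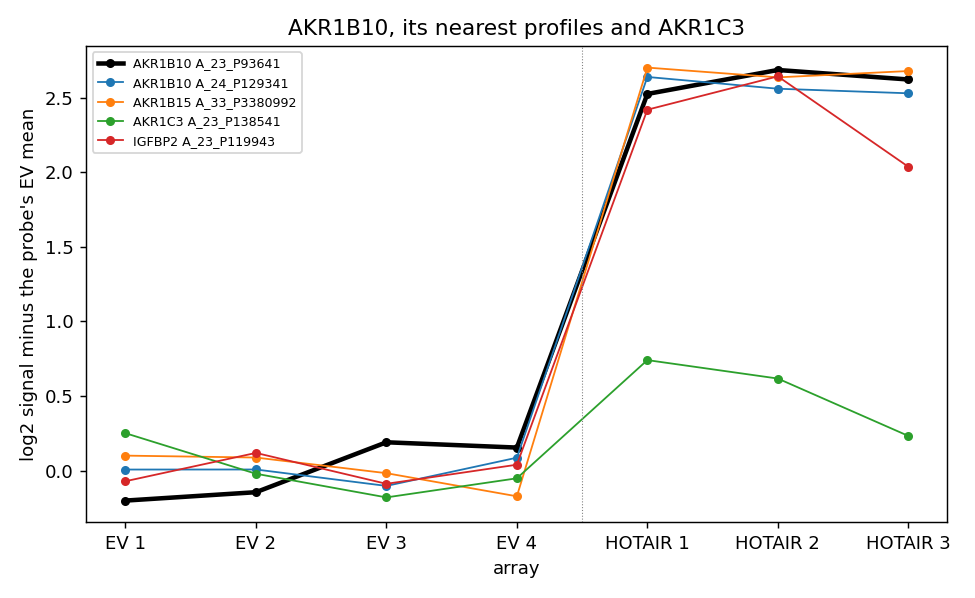
Log2 signal minus the probe's EV mean (vertical axis) on each of the 7 arrays (horizontal axis) for AKR1B10 A_23_P93641 (thick black), its other probe, AKR1B15, IGFBP2 and AKR1C3, all well above background on every array shown. All but AKR1C3 lie more than 2 above their EV mean on the HOTAIR arrays, where AKR1C3 stays below 0.75.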

How the data were processed

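RNA of 7 ACHN samples (4 EV, 3 HOTAIR; groups by the sample labels) was hybridised to single-colour arrays. The authors extracted the images with Agilent Feature Extraction 10.7.3.1 and deposited, for each spot, the processed intensity (background subtracted and detrended by the software), the raw mean and the outlier and background calls. They also deposited a table of intensities, whose 440783 cells differed from the matching spot's value by at most 0.498%. It served as an alternative.

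Values were analysed with R 4.3.3 and limma 3.58.1. From the log2 of the deposited processed intensity, each array's 75th percentile over 58717 non-control spots was subtracted. Outlier spots (408 to 600 per array) were left out and spots of a probe averaged. A probe counted as well above background on an array where at least 0.5 of its kept spots were. Probes called so on all EV or on all HOTAIR arrays (20419 of 42405 probes, 16664 gene names) were tested with lmFit and eBayes and Benjamini-Hochberg adjustment at 0.05. SE is that of the limma fit. The brightest tested probe represents a gene outside the family. In simulated arrays 96% of 200 changed probes were recovered, with 7 false calls. The changes put in were larger than the difference of any gene in the lists, so this does not say how often smaller changes are found. Noise was drawn independently for each probe. The recovery and the false calls thus do not say how the fit behaves where an array deviates over many probes. The rank product, which the methods name, was an alternative with 100 permutations. Its error estimate had earlier been found not to hold for probes of unequal spread, so limma was the main test.

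The members and lists were chosen with earlier results of these data known. Named are all member probes, the HOTAIR probe, in each list the genes past the limit and the highest and lowest, the genes beside AKR1B10, and the 5 nearest profiles outside the family. The number of arrays limits the precision. Gene entries beside the clusters and current names came from the RefSeq table of GRCh38.p14. Its coordinates served only to find and order the gene entries around the clusters. The probe positions are those of the array annotation.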

Additional observations from a re-analysis of the deposited data

How the results depend on the processing

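The 3 probes of AKR1B10 and AKR1B15 stayed higher in HOTAIR under every alternative run, and passed an adjusted p of 0.05 in all of them but the fit with the replicate block. No other AKR probe passed in any. The family was chosen by the differences of AKR1B10 and AKR1B15, so these passes describe the same values and give no further test. With normexp background correction the log2 differences were 2.35 and 2.28 for AKR1B10, 1.98 for AKR1B15 and 0.068 for AKR1C1 A_23_P257971, and 12 probes were called in place of 34. The offset of this setting lowers the differences of dim probes by construction, and its part beside that of the background model was not tested. The causes of the other changes given here were not tested. With no filter 14 were called, with the filter applied to all arrays 22, with trend and robust moderation 20, and with the rank product 77. The labels do not say whether numbers 1 to 3 pair the samples. Deviations from the group mean correlated at 0.386, -0.368 and -0.406 between arrays of the same number. Deviations from the mean of so few arrays depend on each other, so these values cannot decide it. The replicate block gave 0 calls by limma, 1073 probes at an unadjusted p of 0.05, and differences of 2.66, 2.60 and 2.61 for the AKR1B10 and AKR1B15 probes. EV 4 has no partner in it.

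Leaving out 1 array at a time gave 9 (without EV 1) to 30 calls, with 12 without EV 3, 11 without EV 4, and 15, 13 and 21 without HOTAIR 1, 2 and 3. The log2 differences then ranged over 0.035 to 0.16 for AKR1B1, 0.30 to 0.54 for AKR1C1, 0.43 to 0.68 for AKR1C3, -0.17 to 0.48 for AKR1A1, -0.068 to -0.031 for AKR7A2 and -0.0094 to 0.26 for AKR7A3, the low ends for AKR1A1 and AKR7A3 being without EV 2. The NRF2 targets held 0 to 1 calls, and 0 with the deposited table unscaled, with no filter, without EV 2 and HOTAIR 3 together, and with the replicate block. The adjusted p of SLC7A11 was 0.014 to 0.451 over 17 alternatives.

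Some differences that had not passed the test changed sign. BPGM had -0.020 with normexp and -0.059 without EV 2 and HOTAIR 3. SLC35B4 had 0.014 with the percentile over detected probes and 0.043 with the unscaled table. With the replicate block SLC35B4 had 0.00059, CALD1 -0.0040 and C7orf49 -0.064. With 1 array left out the ranges were -0.042 to 0.041 for SLC35B4, -0.027 to 0.073 for BPGM, -0.017 to 0.12 for CALD1, -0.064 to 0.10 for C7orf49, -0.14 to 0.68 for HSD17B14 and -0.13 to 0.031 for ABCC3.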
